A study of Mus musculus with 18 samples.

Results

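Replication-dependent histone genes lie in clusters in the mouse genome, and their symbols on older arrays start with Hist1h, Hist2h, Hist3h or Hist4h. The members described here are all probes of the array whose platform symbol starts that way. They are 30 of 23473 probes and carry 20 of the 16446 gene symbols on the platform. Of the probes, 28 belong to the Hist1 cluster, 1 to Hist2 (Hist2h2aa1), 1 to Hist3 (Hist3h2ba) and 0 to Hist4. By class, 7 probes are named for the linker histone H1, 6 for H2A, 8 for H2B, 2 for H3 and 7 for H4. All 7 H4 probes carry the symbol Hist1h4a, 3 carry Hist1h2bp, 2 carry Hist1h1e and 2 carry Hist1h2ab, so probes are given by symbol and probe identifier. RefSeq lists 70 mouse genes with such names, many of them near-identical copies. Which copy a probe reads is therefore uncertain, and probe sequences were not used here.

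RNA from the hippocampus of 18 mice was hybridised to 18 arrays in a single colour, 1 array per mouse. There were 7 wild-type (WT) mice, 7 AtrxΔE2 mice, which carry a mutant allele of the X-linked gene Atrx, and 4 AtrxΔE2 mice treated with 5-aminolevulinic acid (5-ALA), the precursor of haem. The treated mice received 3 mg per kg by mouth once a day from postnatal day 30 to 90. Array identifiers fell into 2 series: series A held WT 1 to 3 and AtrxΔE2 1 to 3, and series B held WT 4 to 7, AtrxΔE2 4 to 7 and 5-ALA 1 to 4. Groups were compared within a series only. Strain, sex, age at sampling, any vehicle given to the untreated mice and the cells in which the AtrxΔE2 allele acts are not given in the sources used here.

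Most clustered histone genes are transcribed during S phase, when new DNA is packed into nucleosomes. Their mRNAs usually end in a stem-loop in place of a poly(A) tail; the stem-loop is bound by SLBP and the end is cut by a dedicated processing machinery, while some of these genes also give polyadenylated transcripts in cells that have stopped dividing. ATRX, the protein made from Atrx, works with DAXX to place H3.3, a variant whose genes lie outside the clusters, into heterochromatin and telomeres. The amplification kit named in the labels primes on poly(A) tails, so arrays of this kind read mainly tailed transcripts.

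The promoters of 7 member genes are shown because they belong to the probes that passed a test or had the smallest p of their class in the comparison of treated with untreated mutants. Each is the stretch of 150 bases before the RefSeq start of the gene on GRCm38.p6, read on the gene's strand. Capitals mark matches, on either strand, to the octamer ATTTGCAT, the CCAAT box, the TATA box TATAAA, the H1 box AAACACA and the H4 core GGTCC.
Hist1h2ab (chr13:23750938-23751087, plus strand): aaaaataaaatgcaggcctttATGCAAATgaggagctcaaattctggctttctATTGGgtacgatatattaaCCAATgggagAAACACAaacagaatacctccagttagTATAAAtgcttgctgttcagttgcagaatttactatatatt
Hist1h2ba (chr13:23934157-23934306, minus strand): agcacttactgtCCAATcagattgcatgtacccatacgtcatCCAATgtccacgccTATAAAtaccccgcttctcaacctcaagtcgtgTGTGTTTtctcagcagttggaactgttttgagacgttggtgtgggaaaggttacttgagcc
Hist1h2bk (chr13:22035671-22035820, plus strand): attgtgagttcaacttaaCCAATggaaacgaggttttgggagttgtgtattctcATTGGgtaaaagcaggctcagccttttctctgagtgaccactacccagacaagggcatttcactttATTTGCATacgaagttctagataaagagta
Hist1h1e (chr13:23622559-23622708, minus strand): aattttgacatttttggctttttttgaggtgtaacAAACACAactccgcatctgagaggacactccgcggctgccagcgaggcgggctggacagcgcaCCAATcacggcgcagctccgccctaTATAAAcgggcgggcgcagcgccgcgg
Hist2h2aa1 (chr3:96245347-96245496, plus strand): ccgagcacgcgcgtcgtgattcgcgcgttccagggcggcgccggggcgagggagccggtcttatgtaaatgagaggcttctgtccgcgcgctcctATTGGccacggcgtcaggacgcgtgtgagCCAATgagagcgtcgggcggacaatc
Hist1h3b (chr13:23752195-23752344, plus strand): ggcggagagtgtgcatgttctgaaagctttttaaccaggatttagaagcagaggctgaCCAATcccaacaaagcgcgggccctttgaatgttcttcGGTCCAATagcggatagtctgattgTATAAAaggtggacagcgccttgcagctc
Hist1h4a (chr13:23761250-23761399, minus strand): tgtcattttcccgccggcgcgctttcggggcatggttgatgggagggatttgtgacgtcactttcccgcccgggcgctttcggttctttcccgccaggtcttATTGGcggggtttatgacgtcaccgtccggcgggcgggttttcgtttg

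Over a window from 250 bases before to 50 after the start, a CCAAT box was present in 20 of 20 member genes, against 37.41% of 32851 RefSeq promoters. TATAAA was present in 14 of 20 member genes, against 13.62%, and the octamer in 5, against 1.735%. The octamer matches lay in 2 of 5 H2A and 3 of 6 H2B genes. Among them were Hist1h2ab, Hist1h2ba and Hist1h2bk, the genes named on the probes that passed a test below. The others were Hist1h2aa and Hist1h2bm, whose probes passed no test in the limma model below, nor did the probe M400007457 of Hist1h2ab. The match of Hist1h2ba lies outside the 150 bases shown. AAACACA was present in 9 of 20 member genes, 5 of 6 among H1, against 7.184%. GGTCC was present in 4 of 20, against 45.49%, and in Hist1h3b it overlaps a CCAAT box. A match describes these letters only.

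Blank spots on each array gave the background. A probe was taken as above blank on an array when its intensity exceeded the 95th percentile of that array's 2736 blank spots. By this measure 27 of 30 members were above blank on all 18 arrays, Hist1h1b on 9, Hist1h1e (M400003850) on 13 and Hist1h1t, which encodes a testis-specific linker histone, on 1. Hist1h1t was not tested, since a probe had to be above blank on 4 arrays, which leaves 29 members of 22538 probes.

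Being above blank was often a matter of a small margin. On all 18 arrays, 11 members had an intensity of at least 2 times the blank level. These were Hist1h1c, Hist1h2ab (M400007165), Hist1h2af, Hist1h2ak, Hist2h2aa1, Hist1h2bh, Hist1h2bk, Hist1h2bm, Hist1h2bp (M300001635), Hist3h2ba and Hist1h4a (M200009516). They are 1 of 7 H1, 4 of 6 H2A, 5 of 8 H2B, 0 of 2 H3 and 1 of 7 H4 probes. Another 10 members stayed under 1.5 times the blank level on all arrays, among them Hist1h1a, Hist1h1b, Hist1h1d, Hist1h2ba and Hist1h3b, and 9 lay between. Hist1h2ak ran from 24.2 to 80.3 times the blank level over the arrays, and Hist1h3b from 1.00 to 1.18. Where probes shared a symbol they lay at different distances from the blank: Hist1h2ab (M400007165) had a median of 23.4 times, and Hist1h2ab (M400007457) 1.13 times. The brightness of different probes does not rank their transcripts.

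**Figure D1:**
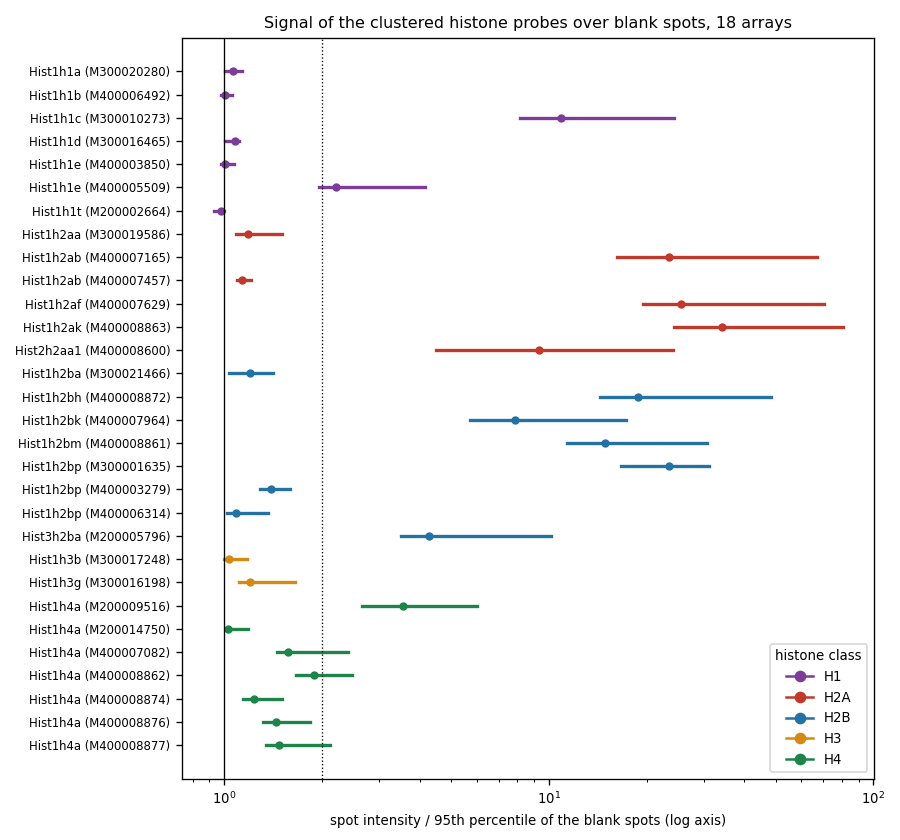
Intensity of each of the 30 member probes divided by the 95th percentile of the blank spots of the same array (log axis), as the median (point) and range (line) over 18 arrays, coloured by histone class. The solid line is the blank level and the dotted line is 2 times it; 11 probes lie right of the dotted line on all arrays, and Hist1h1t lies at the blank level.

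Values that apply to the arrays as a whole bear on every comparison below. The mean of the blank spots was 37.1 to 38.7 on the WT and 37.7 to 40.7 on the AtrxΔE2 arrays of series A. In series B it was 55.3 to 56.6 on WT, 59.3 to 61.6 on AtrxΔE2 and 61.9 to 63.2 on 5-ALA arrays, with no overlap. The array numbers of series B also run in group order, WT from 1 to 4, AtrxΔE2 from 5 to 9 and 5-ALA from 11 to 14, so anything that followed array number cannot be told apart from the groups. Hippocampal neuron markers were present on all arrays (summed level of 9 genes 3009 to 4932, as intensity after normalization). In series B their sum was 3009 to 3500 in WT, 3128 to 4932 in AtrxΔE2 and 4057 to 4397 in 5-ALA arrays. The WT and 5-ALA arrays thus did not overlap. Single genes of the 9 went both ways, by −0.66 to 0.54 in log2 between genotypes in series B. Of them 1, C1ql3, was called lower (limma) and 0 higher, beside 1.19% of all probes called lower. Between treated mutants and WT they differed by −0.75 to 0.62, with 3 called higher, beside 5.49% of all probes, and 0 lower. Markers of neighbouring tissue and of other cells also differed between the series or the groups. The summed level of 7 choroid plexus genes was 58.7 to 211 in series A and 47100 to 55356 in series B. On WT arrays of series B it was 47100 to 54640. It was 55259 to 55356 on AtrxΔE2 arrays, above all WT arrays, and 54551 to 54783 on 5-ALA arrays. Of these 7 genes, 4 were called higher in AtrxΔE2 than in WT mice of series B (limma), beside 1.22% of all probes. With treatment 3 were called lower, beside 3.26% of all probes. Between treated mutants and WT, 3 were called higher and 2 lower, beside 5.49% and 4.87%. The summed level of 4 striatal genes was 605 to 1663 in series A and 4263 to 9933 in series B. Within series B the striatal sum was 5362 to 6694 in WT, 8014 to 9933 in AtrxΔE2 and 4263 to 5292 in 5-ALA arrays, again with no overlap. There, 3 thalamic genes summed to 1588 to 2354 in WT, 312 to 956 in AtrxΔE2 and 565 to 1238 in 5-ALA arrays. Both mutant groups thus lay below the WT arrays in the thalamic sum. The sum of 8 microglial genes was 3759 to 4491 over the WT and AtrxΔE2 arrays of series B and 2825 to 3082 over the 5-ALA arrays. In series B, 6 astrocyte genes summed to 3529 to 4117 in WT, 2658 to 3364 in AtrxΔE2 and 2884 to 3672 in 5-ALA arrays. The sum of 4 myelin genes was 3195 to 6726 in series A, 20219 to 25227 over the WT and AtrxΔE2 arrays of series B and 15248 to 19527 over the 5-ALA arrays. That of 5 endothelial genes was 2385 to 2695 over the WT and AtrxΔE2 arrays of series B and 2167 to 2315 over the 5-ALA arrays. The part of any of these in the histone values was not tested. In tissue RNA, fewer cells of a type and less RNA per cell cannot be told apart.

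The Atrx probe (M200002879) was checked in every group first. Its log2 level was 6.82 to 7.08 on WT and 6.38 to 6.51 on AtrxΔE2 arrays of series A. In series B it was 6.36 to 6.61 on WT arrays, 6.05 to 6.31 on the 3 AtrxΔE2 arrays with a usable spot, and 6.01 to 6.23 on 5-ALA arrays. AtrxΔE2 arrays thus lay below the WT arrays of their series without overlap. The difference was −0.52 in series A (adjusted p = 0.179) and −0.29 in series B (adjusted p = 0.0927, limma), and neither passed the threshold. Where the probe lies relative to the mutation is not given in the sources used here, so it checks only the direction.

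Levels below are log2 intensities after normexp correction and quantile normalization, and differences are log2 differences from 1 limma model of the 5 combinations of group and series, with Benjamini-Hochberg adjustment over 22538 probes and a threshold of 0.05. WT and AtrxΔE2 were compared first in series A. In that comparison 0 of 29 members were called, beside 0.00887% of all tested probes (2 probes). At an unadjusted p under 0.05 there was 1 member, beside 3.02% of all probes. The members' median difference was −0.03 (range −0.21 to 0.11), with 10 higher and 19 lower in AtrxΔE2, and the median of all probes was 0.00.

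The member with p under 0.05 was Hist1h2ab (M400007165), which encodes a core H2A. Its levels were 10.63, 10.95 and 10.55 on the WT arrays and 10.64, 10.36 and 10.49 on the AtrxΔE2 arrays. The groups overlap, and WT 2 is the highest array. The difference was −0.21 ± 0.0937 (SE; adjusted p = 1.00, limma). The next lowest differences were −0.13 for Hist1h2af, another H2A, and −0.11 for Hist1h1c, a linker histone. The highest were 0.11 for Hist1h2bk, 0.09 for Hist3h2ba and 0.05 for Hist2h2aa1. None of these passed the test. All 7 probes named Hist1h4a were lower in AtrxΔE2, by 0.04 to 0.11, and none passed the test.

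In series B, with 4 arrays in each group, 1 of 29 members (3.45%) was called between WT and AtrxΔE2, beside 2.41% of all tested probes (1.22% higher and 1.19% lower in AtrxΔE2). The members' median was −0.03, with 8 higher and 21 lower, and the median of all probes was 0.00. With 7 probes named Hist1h4a and 3 named Hist1h2bp, the members counted are not independent. At an unadjusted p under 0.05 there were 5 members of 29, beside 16.6% of all probes.

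The called member was Hist1h2ab (M400007165). Its levels were 10.25, 10.42, 10.32 and 10.30 on WT arrays 4 to 7, and 10.75, 10.63, 10.57 and 10.65 on AtrxΔE2 arrays 4 to 7. Every AtrxΔE2 array was higher than every WT array. It rose by 0.33 ± 0.0811 (SE, 95% interval 0.15 to 0.50; adjusted p = 0.0489, limma). The authors' normalized intensity was 596 ± 39.8 in WT and 708 ± 49.8 in AtrxΔE2 mice (SD, n = 4 each), a ratio of 1.19. The call lies at the threshold and was lost when any 1 of 13 of the 18 arrays was left out (adjusted p up to 0.148), with consecutive arrays averaged in pairs (difference 0.33, adjusted p = 0.575), with the blank level as a covariate (0.38, adjusted p = 0.396) and when tested on the authors' table (0.25, adjusted p = 0.214). Over all probes the calls went from 543 to 36 with pairs averaged and to 21 with the blank level as a covariate. The other probe named Hist1h2ab (M400007457), close to the blank level, differed by 0.02.

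The direction of Hist1h2ab (M400007165) was opposite in the 2 series. The difference between the genotype effects, series B minus series A, was 0.54 ± 0.124 (SE, 95% interval 0.27 to 0.80; adjusted p = 0.143, limma), which did not pass the threshold. In that test 0 of 29 members were called, beside 0.102% of all probes (0.0532% with a higher and 0.0488% with a lower effect in series B), and 3 members had an unadjusted p under 0.05, beside 8.94% of all probes. The next largest differences between the series were those of Hist2h2aa1, −0.52 (adjusted p = 0.652), and Hist1h1c, 0.23 (adjusted p = 0.822), followed by Hist1h2af (0.17), Hist1h2bk (−0.15) and Hist1h2bh (−0.14).

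Hist2h2aa1, the H2A probe of the Hist2 cluster, had the largest genotype difference of all members in series B and did not pass the test. Its levels were 9.18, 9.32, 9.49 and 9.44 on WT arrays and 9.16, 8.19, 9.31 and 8.87 on AtrxΔE2 arrays. AtrxΔE2 5 is the lowest of all 18 arrays, and the groups overlap. The difference was −0.47 ± 0.196 (SE; adjusted p = 0.239, limma). Without AtrxΔE2 5 it was −0.24 (adjusted p = 0.509). The 4 arrays of 5-ALA mice read 9.09, 9.01, 9.34 and 9.37, with a mean of 9.20 between the means of WT (9.36) and AtrxΔE2 mice (8.88). Hist2h2aa1 also had the largest residual spread of the members, an SD of 0.296, against a median of 0.149 over the 11 members at least 2 times above blank (range 0.113 to 0.296).

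Among the other series B genotype values, the differences of Hist1h1c (0.12) and of the H2A probe Hist1h2ak (0.08) did not pass the test, nor did those of Hist1h2bp (M400003279; −0.14, adjusted p = 0.185) and Hist1h2bh (−0.11). Of 8 H2B probes 7 were lower and 1 was higher, with a median of −0.08 and none called. The split was also 1 higher and 7 lower with each series fitted alone, without background correction or with the blank level as a covariate. It was 2 higher and 6 lower with the series as an additive term, and 0 higher and 8 lower with the authors' table. With arrays scaled to their median it was 5 higher and 3 lower, so the direction depended on the scaling. In series A, 4 H2B probes were higher and 4 lower. The class was not tested.

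**Figure D2:**
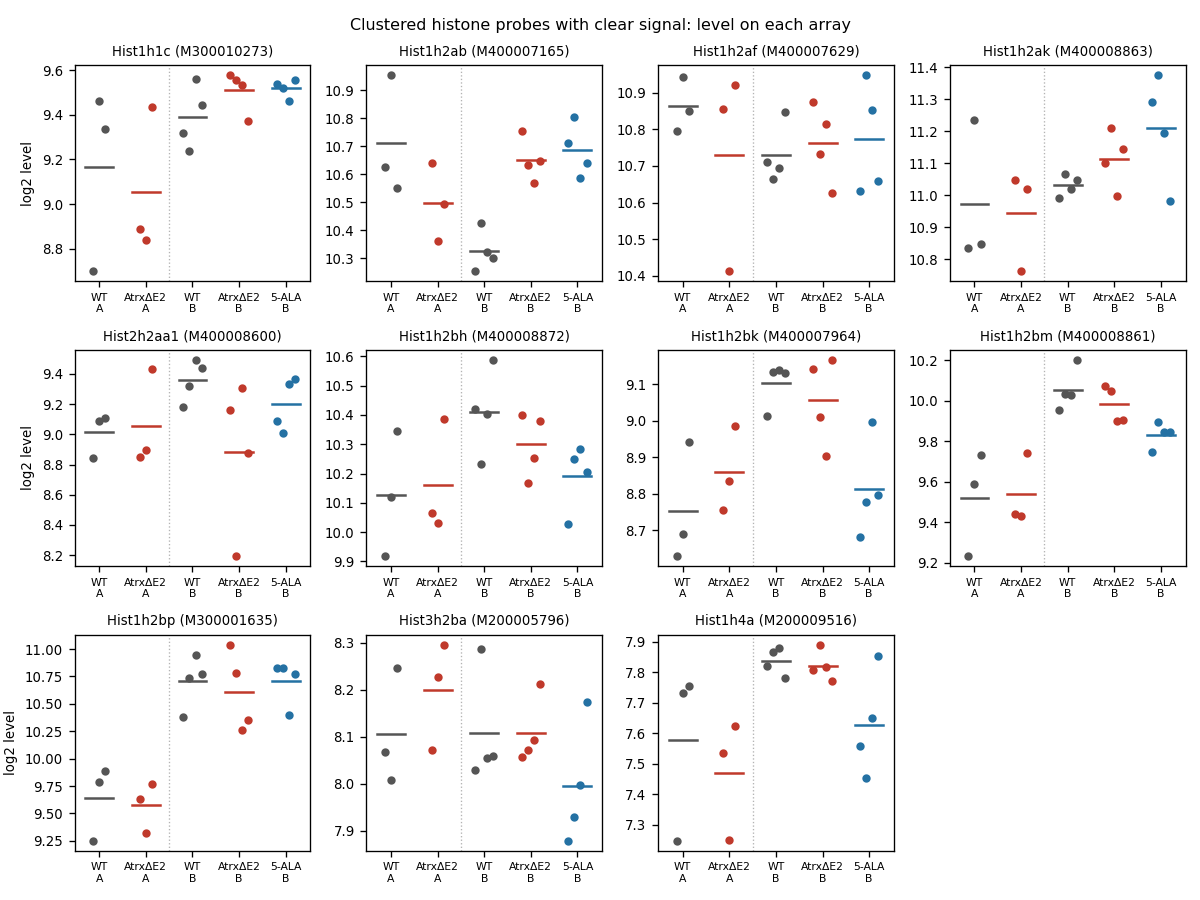
Log2 level on each array (points) with the group mean (bar) for the 11 probes at least 2 times above blank on all arrays. A and B are the array series, with 3 arrays in a series A group and 4 in a series B group; each panel has its own axis. In series B, Hist1h2ab is at 10.25 to 10.42 in WT and at 10.57 or above in both mutant groups, and Hist1h2bp lies near 9.6 in series A and near 10.7 in series B.

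The effect of 5-ALA was read by comparing treated with untreated AtrxΔE2 mice in series B. None of 29 members was called (limma), beside 6.75% of all tested probes (3.49% higher and 3.26% lower in treated mice), and 2 members had an unadjusted p under 0.05, beside 22.3% of all probes. Differences ran from −0.24 to 0.32 with a median of 0.00, and 15 were higher and 14 lower in treated mice.

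Both members with p under 0.05 were H2B probes that were lower in treated mice. Hist1h2bk read 9.14, 9.01, 8.90 and 9.17 on AtrxΔE2 arrays 4 to 7, and 8.68, 8.78, 8.998 and 8.80 on 5-ALA arrays 1 to 4. All treated arrays but 5-ALA 3 lay below every untreated one. The difference was −0.24 ± 0.0815 (SE, 95% interval −0.42 to −0.07; adjusted p = 0.0884, limma). Of 18 fits that each left out 1 array, it passed the threshold in 1, the fit without 5-ALA 3 (adjusted p = 0.031, limma). Over the 18 fits the adjusted p ran from 0.031 to 0.237. Without 5-ALA 3 the calls over all probes went from 1522 to 2020.

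Hist1h2ba, which encodes an H2B of male germ cells and is dim here, read 6.19, 6.14, 6.09 and 6.15 on AtrxΔE2 arrays and 6.02, 6.04, 5.98 and 6.04 on 5-ALA arrays. The groups did not overlap. The difference was −0.12 ± 0.0429 (SE; adjusted p = 0.096, limma). Its intensity never exceeded 1.42 times the blank level.

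By class, the smallest p of the treatment comparison belonged to Hist1h1e (M400003850) for H1, with −0.04, which was above blank on 3 of 4 untreated and 1 of 4 treated arrays. It belonged to Hist2h2aa1 for H2A (0.32, adjusted p = 0.38), to Hist1h2bk for H2B, to Hist1h3b for H3 (0.03, adjusted p = 0.372) and to Hist1h4a (M200009516) for H4 (−0.19, adjusted p = 0.318). None of them passed the test, nor did Hist1h2bm (−0.15), Hist1h2bp (M400003279; 0.11) or Hist1h2ak (0.10). Hist1h2ab (M400007165), the member called between genotypes, read 10.71, 10.81, 10.59 and 10.64 in treated mice, and its treatment difference was 0.04 (95% interval −0.14 to 0.21).

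**Figure D3:**
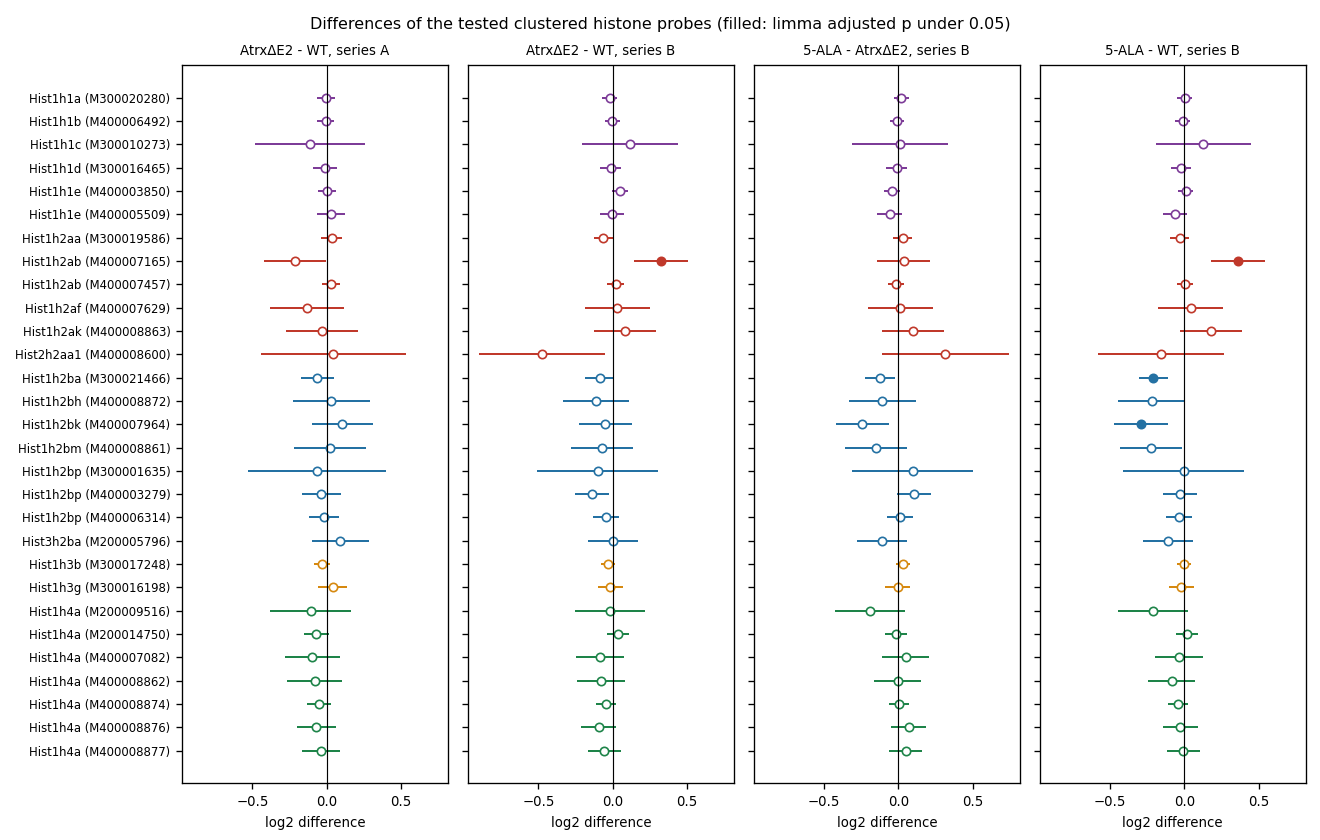
Log2 difference (point) with its 95% interval (line) for the 29 tested members in 4 comparisons within a series, coloured by class. Filled points passed a limma adjusted p under 0.05: Hist1h2ab (M400007165) in both comparisons with series B WT mice, and Hist1h2ba and Hist1h2bk, lower in treated mutants than in WT.

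Treated AtrxΔE2 mice were also compared with WT mice of series B. This comparison shares its WT arrays with the genotype comparison and its 5-ALA arrays with the treatment comparison, and is not independent of either. In it 3 of 29 members (10.3%) were called, beside 10.4% of all tested probes (5.49% higher and 4.87% lower), so the members' share was that of the array. At an unadjusted p under 0.05 there were 5 members, beside 27.1% of all probes. The members' median was −0.03, with 8 higher and 21 lower, and the median of all probes was 0.00.

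Hist1h2ab (M400007165) rose by 0.36 ± 0.0811 (SE; adjusted p = 0.0142, limma), with all 4 treated arrays above all 4 WT arrays. The authors' intensity was 748 ± 53.4 in treated mice, 1.25 times that of WT. Leaving out 5-ALA 2 brought the adjusted p to 0.0514.

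Hist1h2bk fell by 0.29 ± 0.0815 (SE; adjusted p = 0.0354, limma). Its WT arrays 4 to 7 read 9.01, 9.13, 9.14 and 9.13, all above the treated arrays, of which the highest, 5-ALA 3, read 8.998. In the authors' intensities the means were 242 ± 15.5 and 191 ± 18.4 (SD, n = 4 each), a ratio of 0.789. The call was lost without WT 5, 6 or 7 or without 5-ALA 1, 2 or 4 (adjusted p up to 0.108), and with arrays scaled to their median the difference was −0.16 (adjusted p = 0.211).

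Hist1h2ba fell by 0.21 ± 0.0429 (SE; adjusted p = 0.0087, limma). WT arrays 4 to 7 read 6.20, 6.38, 6.21 and 6.14, above all treated arrays. AtrxΔE2 arrays overlapped the WT arrays, with a mean of 6.14 between those of WT (6.23) and treated mice (6.02). The authors' normalized intensities were 12.4 ± 2.99 in WT and 6.00 ± 0.735 in treated mice (SD, n = 4 each), a ratio of 0.486. The order of its mean levels in series B, WT, AtrxΔE2 and 5-ALA, is the reverse of the order of the blank level over the same groups. With the blank level as a covariate its difference was −0.09 (adjusted p = 0.706, limma). In series A, where the blank level was lower, its mean was 5.91 in WT and 5.84 in AtrxΔE2 mice. Blank level and group cannot be told apart in series B, and a part of the blank level in this difference was not tested. The call held with any single array left out (adjusted p up to 0.0245).

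All 3 calls against WT were lost when consecutive arrays of series B were averaged in pairs, which left the differences as they were, and all 3 when the blank level was a covariate. Over all probes the calls went from 2335 to 15 with pairs averaged and to 2 with the covariate, so the losses are not particular to the members. Averaging leaves fewer values per group. The blank level did not overlap between the series B groups, so its part and that of the group cannot be told apart. With that covariate Hist1h2ab (M400007165) differed by 0.44, Hist1h2bk by −0.37 and Hist1h2ba by −0.09, so of these 3 the difference of Hist1h2ba alone was smaller. Deviations of consecutive arrays from their group mean correlated over probes at 0.447 (5-ALA 1 and 2), 0.427 (5-ALA 3 and 4), 0.185 (AtrxΔE2 4 and 5), 0.247 (AtrxΔE2 6 and 7), −0.200 (WT 4 and 5) and 0.0205 (WT 6 and 7). Deviations of 4 arrays from their mean sum to 0, which ties both values of a group together and pulls those of unrelated arrays below 0. These correlations are therefore not to be read against 0, and no test was made of them.

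The H2B class had the lowest median against WT. Its 8 probes were all lower in treated mice, by 0.01 to 0.29, with a median of −0.16, and 2 (Hist1h2bk and Hist1h2ba) were called lower, beside 4.87% of all probes called lower. Hist1h2bm, Hist1h2bh and Hist3h2ba differed by −0.22 (adjusted p = 0.146), −0.22 (adjusted p = 0.181) and −0.11, and did not pass the test. With arrays scaled to their median, 1 was higher and 7 were lower. H2A probes went both ways, 4 higher and 2 lower, with 1 called higher. Hist1h2ak differed by 0.18 (adjusted p = 0.239) and Hist2h2aa1 by −0.16. None of the H1, H3 and H4 probes was called; Hist1h1c differed by 0.13, and Hist1h4a (M200009516) by −0.21 on levels of 7.82, 7.87, 7.88 and 7.78 in WT against 7.56, 7.45, 7.65 and 7.85 in treated mice.

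**Figure D4:**
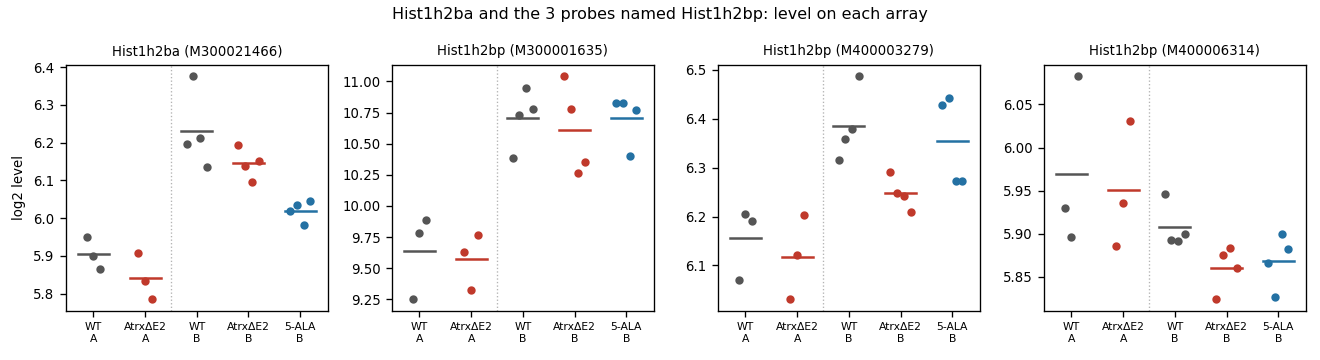
Log2 level on each array (points) with the group mean (bar) for Hist1h2ba and the 3 probes named Hist1h2bp, by group and array series; each panel has its own axis. Hist1h2ba lies at 6.14 to 6.38 in WT and 5.98 to 6.04 in 5-ALA mice of series B, and Hist1h2bp (M300001635) lies at 9.25 to 9.89 in WT mice of series A and 10.38 to 10.95 in those of series B.

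Some members lay at different levels in the 2 series. Between WT mice of series A and series B, Hist1h2bp (M300001635) was at 9.25, 9.78 and 9.89 in series A and at 10.38, 10.73, 10.95 and 10.78 in series B, a difference in means of 1.07. The other probes named Hist1h2bp differed by 0.23 (M400003279) and −0.06 (M400006314), on a scale whose offset of 50 compresses the differences of dim probes. In the authors' intensities M300001635 was at 504 ± 128 in series A and 790 ± 140 in series B, and M400003279 at 10.1 ± 1.91 and 16.6 ± 2.53 (SD, n = 3 and 4), so both were higher in series B by similar ratios, while M400006314 was at 5.37 ± 2.42 and 4.38 ± 0.457. Hist1h2bm, an H2B, differed by 0.54 and Hist1h2ab (M400007165) by −0.38. Over 29 members the median difference between series was 0.02 (range −0.38 to 1.07), and 2 (6.9%) exceeded 0.5, against 4.03% of all tested probes. Series, dissection and every other feature that went with the series cannot be told apart, so this is a description with no test.

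Among the 11 clear members, residuals from the group means correlated over the 18 arrays with a median r of 0.346 over 55 pairs (range −0.468 to 0.821), and 15 pairs exceeded 0.5. The highest pairs were Hist1h1c with Hist1h2bm (0.821), Hist1h2ab (M400007165) with Hist1h2ak (0.802) and Hist1h2bh with Hist1h2bm (0.777). These points share arrays, normalization and in part near-identical sequence, and no p is given. No value for other probes of like brightness stands beside these, so they are not read as a trait of the members.

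Genes that make, process or replace clustered histones were set beside the members. Of 15 genes for the 3′ end processing of histone mRNA, 14 were tested, and 0 were called in either genotype comparison or against WT. Between treated and untreated mutants 3 rose and 2 fell, beside 3.49% of all probes called higher and 3.26% lower; with consecutive arrays averaged in pairs the calls over all probes went from 1522 to 23. Casp8ap2, the processing factor FLASH, rose by 0.22, Sympk, the scaffold symplekin, by 0.19 and Snrpf, a ring protein of small nuclear ribonucleoproteins, by 0.15. Lsm11, a protein specific to the ribonucleoprotein that recognises histone pre-mRNA, fell by 0.57 and Snrpb by 0.34. Slbp, whose product binds the stem-loop, was at 8.33 to 8.51 in WT, 8.14 to 8.40 in AtrxΔE2 and 8.22 to 8.45 in 5-ALA mice of series B, with overlapping groups; its genotype difference was −0.17 (adjusted p = 0.18).

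Of 10 genes for histone gene transcription, Ccne1, which encodes a cyclin E, fell by 0.24 with the genotype in series B (adjusted p = 0.0409) and Ccne2, the other cyclin E gene, rose by 0.12 with treatment (adjusted p = 0.0413, limma). Each was the only 1 of 10 called in its comparison, beside 2.41% of all probes called for that genotype comparison and 6.75% for treatment. Npat, the coactivator of clustered histone genes, differed by at most 0.07 in the 4 comparisons within a series, and none passed the test.

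Of 13 variant histone genes outside the clusters 10 were tested, and 0 were called in any of the 5 comparisons (limma). H3f3b, which encodes H3.3, differed by 0.00 between genotypes and by −0.19 with treatment in series B (adjusted p = 0.406). Of 16 chaperones and partners of ATRX 15 were tested, and the 2 called were Atrx (−0.39) and Asf1a, a chaperone of H3 and H4 (−0.24), both lower in treated mutants than in WT, beside 4.87% of all probes called lower there.

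Of 20 genes of S phase and proliferation 19 were tested, and 0 were called in the genotype and treatment comparisons. Against WT, Pola1, a subunit of DNA polymerase alpha, rose by 0.14 in treated mutants, and Mcm2, a subunit of the replicative helicase, fell by 0.09; these 2 of 19 stand beside 10.4% of all probes called in that comparison. Mki67, a marker of dividing cells, was at 6.06 to 6.24 in WT, 6.24 to 6.30 in AtrxΔE2 and 6.22 to 6.35 in 5-ALA mice of series B, and its genotype difference of 0.11 did not pass the test (adjusted p = 0.228). None of 4 neurogenic markers was called in any of the 5 comparisons.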

How the data were processed

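Per the labels' protocols, total RNA was amplified to amino allyl RNA, coupled to a dye and hybridised to 1 array per mouse. Per the file headers, the deposited value of a spot is a median intensity, with each array scanned at 3 gains. The deposited background column rose with the spot it belongs to (correlation of logs 0.938 to 0.998), so normexp (offset 50) was fitted without it. The authors' second deposited table, with a median intensity of 25 per array, was an alternative; how it was made is not given in the sources used here. No array had more than 11 unusable probe spots; they were dropped, so 82 tested probes, none a member, were fitted on fewer arrays. Arrays were quantile normalized, and 935 of 23473 probes that were above blank on fewer than 4 arrays were left out.

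limma 3.58.1 in R 4.3.3 fitted the 5 combinations of group and series over 18 arrays. Two-sided moderated tests were adjusted with Benjamini-Hochberg. The number of arrays limits precision. The labels number mice, not litters or extractions.

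The members and gene lists were chosen with earlier results of these data known. A listed gene was read by its tested probe of highest mean. Named are members called in any comparison, the 3 largest rises and falls of each comparison, untested members, the smallest p of each class with treatment, called list genes, and Slbp, Npat, H3f3b, Mki67 and Atrx. Hist1h2bp (M400006314), Hist1h2ab (M400007457) and the treated-against-WT values of Hist2h2aa1, Hist3h2ba and Hist1h4a (M200009516) were added after their values were seen. The fit was tested on simulated data.

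Alternatives were an additive series term, each series alone, no background correction, median scaling, the authors' table, other filters and thresholds, a trended prior, arrays averaged in pairs, the replicate block, each array left out and, chosen after seeing the data, the blank level as a covariate.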

Additional observations from a re-analysis of the deposited data

Results flagged for a closer look

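In 42 sets of 4 series B arrays of the named members, 2 held an array whose distance from the nearest of the others was large for the range of the set by Dixon's criterion, which chance exceeds in about 1 of 20 sets. Hist3h2ba read 8.29 in WT 5 against 8.03 to 8.06 in the other WT arrays. Hist1h2bk read 9.01 in WT 4 against 9.13 to 9.14 in the others. No cause was tested.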

How the results depend on the processing

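Of the values that answer a comparison, the counts of members called with the genotype in series A and in the test between series stayed at 0 under all alternatives run. With the genotype in series B the count of 1 became 0 with the series as an additive term, the authors' table, no filter, a trended and robust prior, pairs averaged, the replicate block or the blank level as a covariate, and 6 with arrays scaled to their median; without 1 array it was 0 to 1. Hist1h2ab (M400007165) then had adjusted p of 0.0141 to 0.781, with 0.0514 without the filter, 0.0613 with the trended prior and 0.152 under the replicate block, which changed no other member's call; over all probes it called 413 in series B and 0 in series A, against 543 and 2. Deviations of same-numbered WT and AtrxΔE2 arrays from their group means correlated at 0.0852 to 0.508 in series A and −0.138 to 0.0331 in series B. Deviations within a group are tied together, so these values cannot show whether the arrays were paired. The labels give such arrays a shared number and no other link. No paired analysis was possible for the 5-ALA comparisons because treated and untreated arrays of series B share only the number 4. With treatment the count of 0 became 1 with the additive term, 2 at an adjusted p under 0.1 and 0 to 1 without 1 array; against WT the count of 3 became 1 with the additive term, 2 with median scaling (Hist1h2bk lost), 4 with each series fitted alone, 0 with pairs averaged or the blank covariate, and 1 to 3 without 1 array. The members' medians moved with the authors' table to −0.12 and −0.19 (genotype, series A and B), −0.25 (treated against WT) and −0.11 (between series), where the medians of all probes were −0.02, −0.09, −0.13 and −0.07. Against WT, Hist1h2ab and Hist1h2bk were not called with the additive term (adjusted p = 0.182 and 0.0545). Hist1h2bm was called lower in treated mice than in WT with each series fitted alone (adjusted p = 0.0423).

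Calls over all probes varied more. With pairs averaged there were 36, 23 and 15 for genotype, treatment and treated against WT in series B, with the blank covariate 21, 608 and 2. Calls were 3938 with median scaling (32.6% higher) and 353 with the authors' table (13% higher) for the genotype in series B, of 543 (50.5% higher), and 1628 (73.3% higher) and 2762 (14.6% higher) for treated against WT, of 2335 (53% higher).

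Signs turned for some members in comparisons where they had passed no test. For the genotype in series A, Hist1h1c was at 0.020 and Hist1h2ab at 0.095 with the additive term, and Hist2h2aa1 at −0.25 with it and −0.13 with the blank covariate. Without 1 array, Hist1h1c ran from −0.35 to 0.035 (positive without WT 2), Hist1h2af from −0.23 to 0.025 (positive without AtrxΔE2 2) and Hist2h2aa1 from −0.14 to 0.15 (negative without WT 1 or AtrxΔE2 3). In series B, Hist1h1c was at −0.072 (genotype) and −0.15 (treated against WT) with the blank covariate, and Hist1h2bh was at 0.021 (genotype) and Hist1h1e (M400003850) at 0.021 (treatment) with median scaling. The additive term averages the genotype effect over both series by construction; other causes were not tested. Signal near the blank level limits the 10 dim members.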
